A study of Mus musculus with 12 samples.

Results

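The genes described here are 36 genes of the contractile apparatus of skeletal muscle, chosen by symbol, and all 36 of 36 were found among the 23951 genes of the expression table. Cochlear RNA of 4 groups of mice on a mixed 129S2/SvPas:C57BL/6 background was sequenced in 12 libraries, 3 per group. The groups were Dusp1-/- (KO) mice at 5 months (libraries E7, F18 and F19), wild type (WT) mice at 5 months (E1, E3 and E4), KO mice at 8 months (F5, F6 and F27) and WT mice at 8 months (F1, F10 and F12), named by animal code. Dusp1 encodes a phosphatase that switches off MAP kinases, and the study asked how cochlear transcription differed without it and with age. The labels give no other allele and no treatment for any group. The submitters describe detaching the tissue around the inner ear and separating the cochlea from the vestibule. Whether any muscle stayed with a sample was not tested.

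Skeletal muscle contracts when myosin thick filaments slide along actin thin filaments inside repeating units called sarcomeres. Calcium released from the sarcoplasmic reticulum binds troponin and exposes actin to myosin. Fast and slow fibres use different genes for the same parts (myosin heavy and light chains, the troponin subunits, the calcium pump), so the isoforms present differ between fibre types. The middle ear next to the cochlea holds the stapedius and tensor tympani, small skeletal muscles attached to the ossicles.

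The 36 genes were read in 4 classes. The fast-fibre class had 13 genes, the slow-fibre class 6, and the class shared by fibre types 16, and the perinatal myosin Myh8 stood alone. Values are FPKM, fragments per length of transcript and per number of mapped reads, which correct for transcript length and so allow levels of different genes to be set side by side. Nothing beyond the animal codes says how the 3 samples of a group were separated, so p-values measure the spread between these samples. In whole tissue, more muscle cells and more RNA per muscle cell cannot be told apart.

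The libraries were checked for genes expressed in the inner ear. Whether any vestibular tissue stayed with a sample was not tested. Coch, the main extracellular matrix protein of the cochlea, lay between 1888 and 2983 FPKM, and Gjb2, the connexin 26 gene, between 302.0 and 448.3 FPKM. Otof, needed for release at the inner hair cell synapse, was at 5.88 to 14.4 FPKM. Dusp1 itself was at 61.9, 81.5 and 75.3 FPKM in KO libraries at 5 months against 60.8, 47.6 and 29.5 FPKM in WT libraries, and at 55.6, 73.8 and 57.1 FPKM in KO libraries at 8 months against 43.0, 38.3 and 38.6 FPKM in WT libraries. The targeted gene was thus higher, not lower, in every library labelled KO than in every WT library of its age, and its level does not check the labels. KO below means a library labelled Dusp1-/-. The depth of the libraries is unknown from FPKM, but the step of low values put the worth of 1 read at 0.847 to 1.02 of that in E1. Sex is not labelled, and Xist, which is expressed from the inactive X chromosome of females, was above 30 FPKM in E4, F6, F27 and F1 and below 0.1 FPKM in the other 8.

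Many fast-fibre genes, and Acta1, Ckm and Mb among those shared by fibre types, differed strongly between libraries of the same group, and 1 library of each 5-month group stood far above the rest. The fast-fibre genes summed to 14.7, 976.1 and 173.8 FPKM in E7, F18 and F19 (KO, 5 months) against 27.7, 1351 and 38.1 FPKM in E1, E3 and E4 (WT, 5 months). At 8 months they summed to 214.3, 36.3 and 208.9 FPKM in F5, F6 and F27 (KO) against 53.7, 21.8 and 22.9 FPKM in F1, F10 and F12 (WT). F18 and E3, from different genotypes, were highest, F19, F5 and F27, all KO, were intermediate, and the other 7 libraries were low. The lowest library, E7, came from the same group as F18, and the range across libraries was 92.2-fold.

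Slow-fibre genes did not follow. Their 6 FPKM values summed to 5.77, 4.83 and 6.53 in E7, F18 and F19 (KO, 5 months) against 4.94, 5.43 and 5.35 in E1, E3 and E4 (WT, 5 months). At 8 months the sums were 6.81, 7.18 and 6.52 FPKM in F5, F6 and F27 (KO) against 5.25, 6.39 and 5.56 FPKM in F1, F10 and F12 (WT). The full range was 1.49-fold, and F18, with 976.1 FPKM of fast-fibre genes, had the lowest slow-fibre sum.

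**Figure D1:**
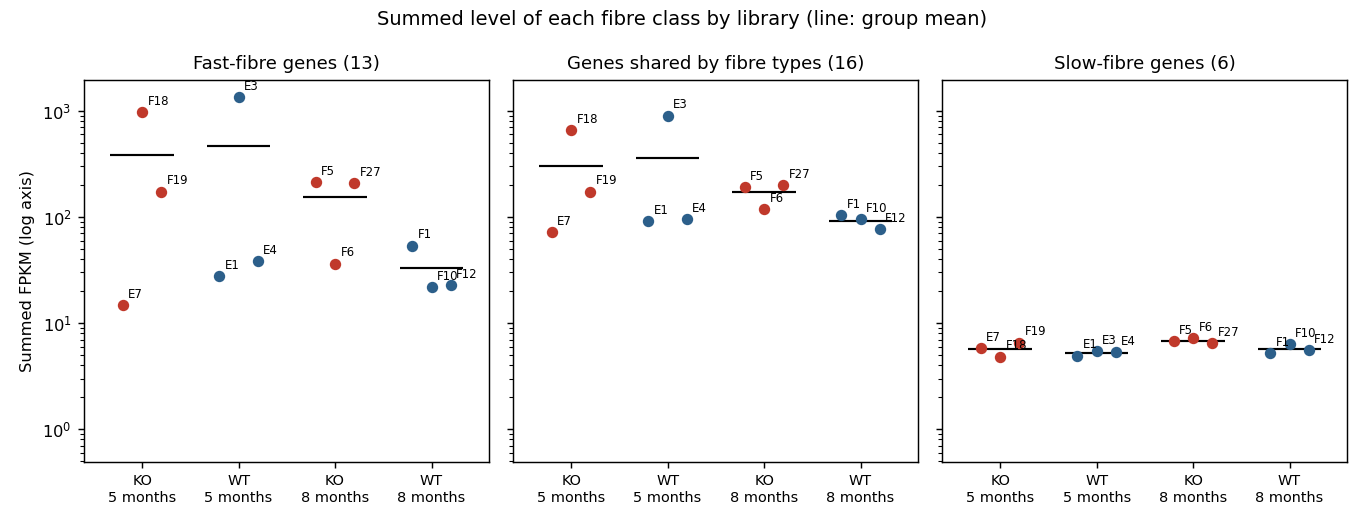
Summed FPKM (log axis) of fast-fibre genes (13), genes shared by fibre types (16) and slow-fibre genes (6) in each library, named by animal code, with KO in red, WT in blue and the group mean as a line. F18 (KO) and E3 (WT) hold the highest fast-fibre sums, 976.1 and 1351 FPKM, while slow-fibre sums stay between 4.83 and 7.18 FPKM.

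Across all 36 genes, E3 and F18 held the 2 highest values for 28. These were 12 of 13 fast-fibre genes, 15 of 16 shared genes and Myh8, and 0 of 6 slow-fibre genes. The exceptions were Myh2 and Mybpc1. Of the 16269 genes that averaged 0.5 FPKM or more over the libraries, 1.08% (175 genes) had E3 and F18 as their 2 highest libraries, and 27 of those 175 were members. The 2 libraries were picked out after their values were seen, so these shares are a description without a test. Relative to the group means, the within-group SD of log2(FPKM + 0.5) had a median of 1.07 for the 33 members that passed that level, against 0.15 for all genes, and was largest for Acta1 and Ckm, at 2.74 each. Within groups, 99.3% of genes varied less than either. Myh2, Myh7 and Myh8 were below the level filter.

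**Figure D2:**
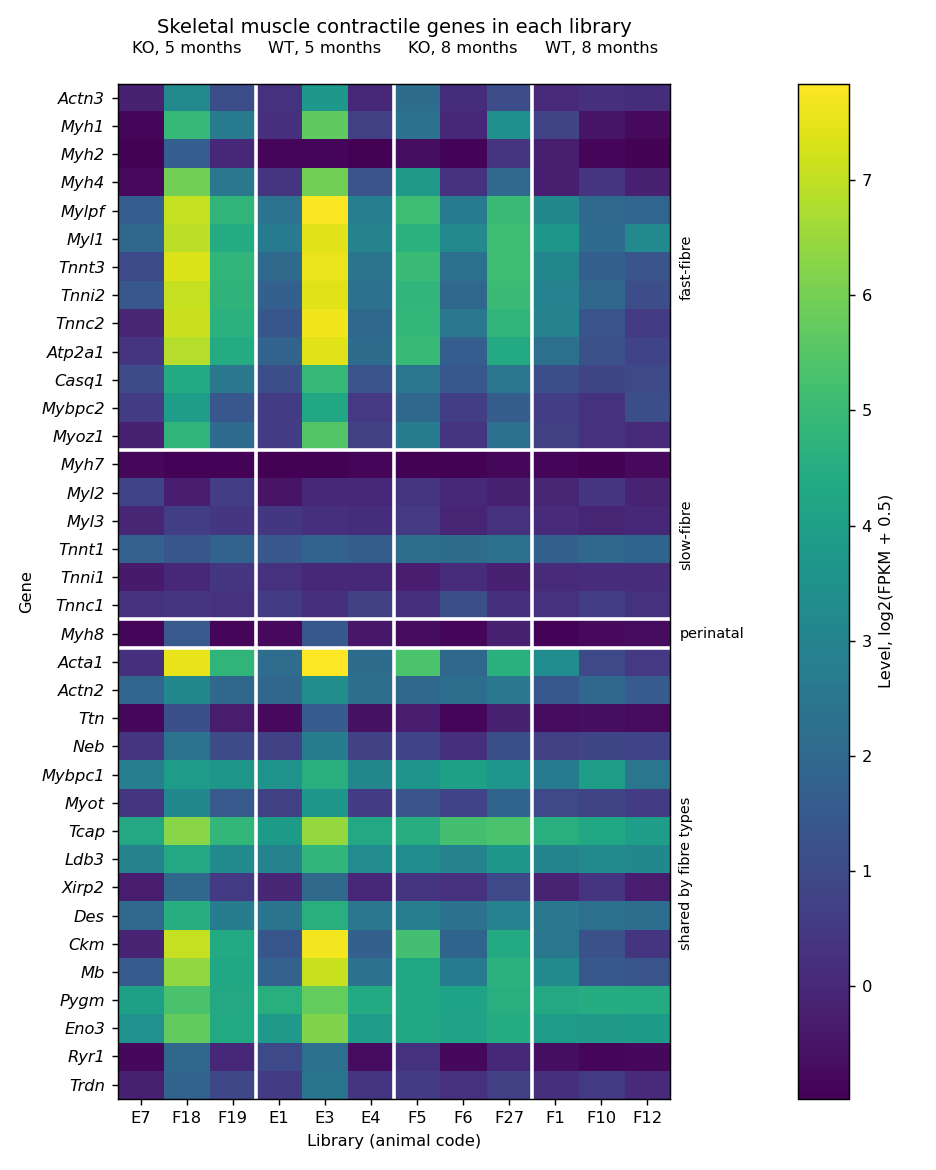
Level of each of the 36 genes, log2(FPKM + 0.5), in the 12 libraries, with KO to the left of WT at each age and genes grouped by fibre class. The columns F18 and E3 are the brightest for fast-fibre and shared genes other than Myh2 and Mybpc1. Slow-fibre genes stay at or below 4.31 FPKM in every column. Pygm, Eno3, Tcap, Ldb3 and Mybpc1 have a level above 5 FPKM in every library.

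Sequences upstream of 5 genes are shown because Acta1, Ckm, Mylpf and Myh4 were highest in F18 and E3. Myh7, at or below 0.098 FPKM in every library, was not. Each runs 250 bases up to the base before the annotated start of its longest transcript, in the build of the files, mm9. Capitals mark 3 motifs that muscle transcription factors are known to bind: the E-box CANNTG, bound by MyoD family factors, and, searched by name, the MEF2 box and the serum response factor CArG box, on both strands. No 2 of the marked matches overlap.
Acta1 (chr8:126418676-126418925, minus strand): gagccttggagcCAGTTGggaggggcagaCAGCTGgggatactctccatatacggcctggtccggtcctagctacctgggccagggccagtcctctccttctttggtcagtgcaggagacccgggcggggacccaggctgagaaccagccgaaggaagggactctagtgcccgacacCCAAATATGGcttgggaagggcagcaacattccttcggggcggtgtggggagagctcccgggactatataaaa
Ckm (chr7:19996193-19996442, plus strand): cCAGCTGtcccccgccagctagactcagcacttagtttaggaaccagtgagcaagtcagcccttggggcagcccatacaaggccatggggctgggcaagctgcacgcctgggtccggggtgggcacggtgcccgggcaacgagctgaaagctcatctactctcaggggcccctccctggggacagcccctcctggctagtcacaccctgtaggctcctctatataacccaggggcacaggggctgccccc
Mylpf (chr7:134354872-134355121, plus strand): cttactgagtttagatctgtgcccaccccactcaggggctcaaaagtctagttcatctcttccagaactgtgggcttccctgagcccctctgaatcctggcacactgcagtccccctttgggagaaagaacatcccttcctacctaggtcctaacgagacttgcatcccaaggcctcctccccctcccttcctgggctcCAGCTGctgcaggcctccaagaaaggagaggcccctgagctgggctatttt
Myh4 (chr11:67051064-67051313, plus strand): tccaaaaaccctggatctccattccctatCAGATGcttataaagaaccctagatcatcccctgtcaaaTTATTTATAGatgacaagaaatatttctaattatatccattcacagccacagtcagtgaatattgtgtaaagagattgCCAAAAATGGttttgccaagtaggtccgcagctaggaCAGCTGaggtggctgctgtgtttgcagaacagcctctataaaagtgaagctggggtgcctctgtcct
Myh7 (chr14:55613387-55613636, minus strand): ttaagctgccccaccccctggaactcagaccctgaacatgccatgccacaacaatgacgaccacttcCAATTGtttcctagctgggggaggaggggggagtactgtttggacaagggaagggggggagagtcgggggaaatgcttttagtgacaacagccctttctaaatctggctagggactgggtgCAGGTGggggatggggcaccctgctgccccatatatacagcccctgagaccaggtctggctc

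An E-box stood in each of these 5 windows, the slow myosin Myh7 included, in 31 of the 36 members and in 62.9% of 23807 genes read the same way. A CArG box stood in the windows of Acta1 and Myh4, in 5 of 36 members and in 1.29% of all genes. A MEF2 box stood in that of Myh4, in 7 of 36 members and in 2.6% of all genes. These are letter matches, not tested as binding sites.

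Among the fast myosin heavy chains, the motor proteins of the thick filament, Myh4 (type 2B) was at 0.095, 62.1 and 5.35 FPKM in E7, F18 and F19 (KO, 5 months) against 0.79, 61.1 and 1.94 FPKM in E1, E3 and E4 (WT, 5 months). At 8 months Myh4 was at 12.99, 0.75 and 3.57 FPKM in F5, F6 and F27 (KO) against 0.36, 0.79 and 0.39 FPKM in F1, F10 and F12 (WT). The 2 highest libraries differed by 1.02-fold. Myh1 (type 2X) was at 0.070, 30.3 and 5.78 FPKM in KO libraries at 5 months against 0.66, 51.1 and 1.11 FPKM in WT libraries, and at 4.54, 0.49 and 10.45 FPKM in KO libraries at 8 months against 1.29, 0.22 and 0.097 FPKM in WT libraries.

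The type 2A myosin Myh2 broke the pattern. It was at 0.031, 2.66 and 0.51 FPKM in E7, F18 and F19 (KO, 5 months) against 0.069, 0.058 and 0.0067 FPKM in E1, E3 and E4 (WT, 5 months), and at 0.14, 0.034 and 0.78 FPKM in F5, F6 and F27 (KO, 8 months) against 0.36, 0.056 and 0.022 FPKM in F1, F10 and F12 (WT, 8 months). E3, the library with the most Myh1, had almost none, and the F18 level was 45.6 times the E3 level. Myh2 per Myh1 was 0.088 in F18, 0.088 in F19 and 0.075 in F27, but 0.030 in F5, also KO, and 0.0011 in E3. It was 0.0060 to 0.44 in the low libraries of both genotypes, where Myh1 was at or below 1.29 FPKM. Myh4 per Myh1 also differed between libraries that were alike in total, at 2.86 in F5 and 0.34 in F27.

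These myosin genes lie next to each other and share sequence, which bears on their values. On chromosome 11 of mm9, Myh2 runs from 66984529 to 67011019, Myh1 from 67013616 to 67038077, Myh4 from 67051314 to 67073949 and Myh8 from 67090626 to 67122135, each with 40 exons on the plus strand. Of the 50-base stretches of their transcripts, the length of a read, 1612 of 5970 for Myh1, 1623 of 6034 for Myh2 (26.9%), 1128 of 5988 for Myh4 (18.8%) and 1306 of 6099 for Myh8 (21.4%) were also found, letter for letter, in another gene. Their levels are therefore uncertain to the extent that shared reads were divided, although E3 had 51.1 FPKM of Myh1 beside 0.058 FPKM of Myh2. Of the other members, Myh7 had 22.9% of such stretches in Myh6, Acta1 had 1.78% in Actb, and the rest had under 1%.

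Myh8, the perinatal myosin of developing and regenerating fibres, was at 0.069, 2.27 and 0.053 FPKM in E7, F18 and F19 (KO, 5 months) against 0.096, 2.22 and 0.24 FPKM in E1, E3 and E4 (WT, 5 months). At 8 months it was at 0.12, 0.056 and 0.38 FPKM in KO libraries against 0.039, 0.093 and 0.12 FPKM in WT libraries. It thus stood out in F18 and E3 alone, at nearly the same level, and these libraries were also highest for Myh1 and Myh4. Since 21.4% of its 50-base stretches occur in other genes, its level is uncertain. The part of shared reads in it was not tested. The slow myosin Myh7 was at 0.078, 0.037 and 0.043 FPKM in KO libraries at 5 months against 0.027, 0.028 and 0.069 FPKM in WT libraries, and at 0.022, 0.022 and 0.073 FPKM in KO libraries at 8 months against 0.051, 0.030 and 0.098 FPKM in WT libraries. No library exceeded 0.098 FPKM, and neither F18 nor E3 stood out.

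**Figure D3:**
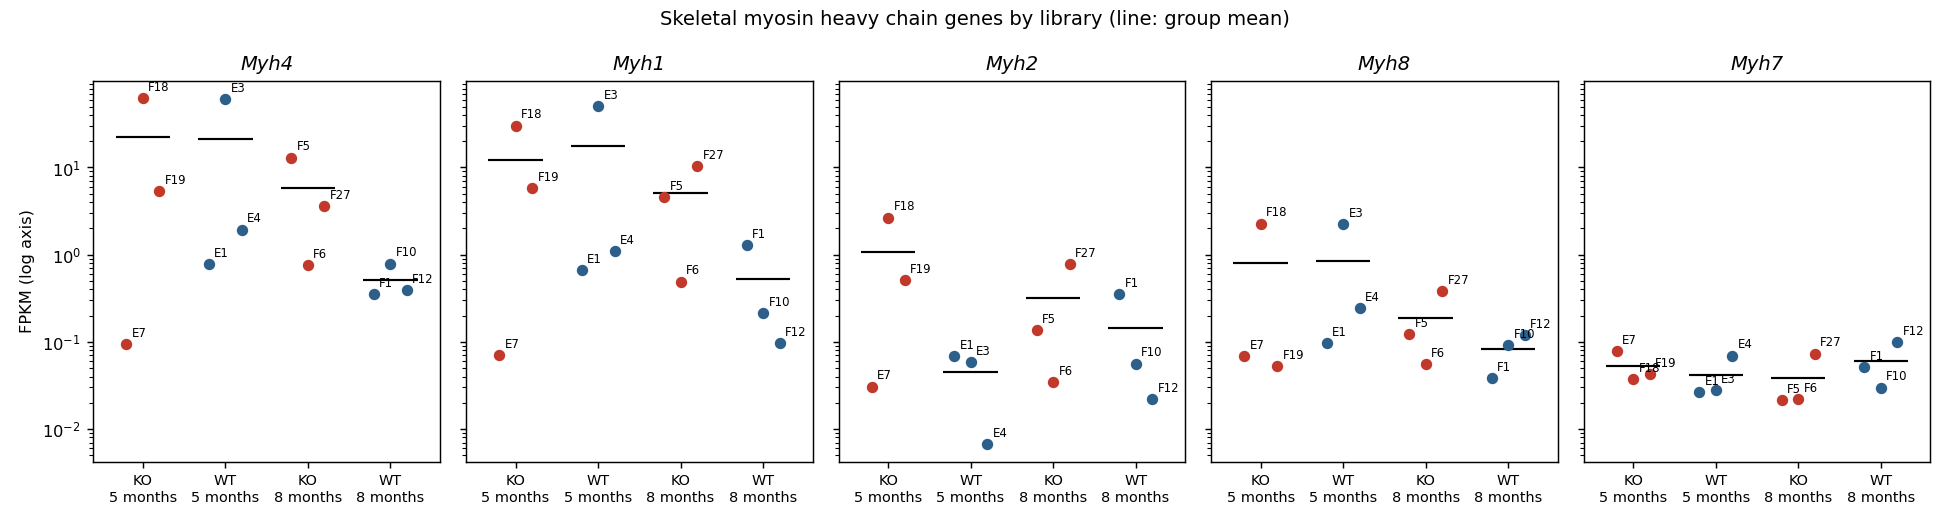
FPKM (log axis) of the myosin heavy chains Myh4 (2B), Myh1 (2X), Myh2 (2A), Myh8 (perinatal) and Myh7 (slow) in each library, KO in red and WT in blue, with the group mean as a line. Myh4, Myh1 and Myh8 are highest in F18 and E3, Myh2 is at 2.66 FPKM in F18 and 0.058 in E3, and Myh7 stays at or below 0.098 FPKM.

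Myosin light chains stabilise the lever arm of the heavy chain. Mylpf, the fast regulatory light chain, was at 2.66, 132.7 and 27.5 FPKM in KO libraries at 5 months against 4.64, 222.7 and 6.53 FPKM in WT libraries, and at 34.2, 5.73 and 32.3 FPKM in KO libraries at 8 months against 8.24, 3.55 and 3.24 FPKM in WT libraries. The fast essential light chain Myl1 was at 124.1 FPKM in F18 and 173.4 FPKM in E3, and at 33.8 FPKM or below elsewhere. Their slow and ventricular counterparts stayed low in every library, Myl2 at 0.19 to 1.22 FPKM and Myl3 at 0.46 to 1.06 FPKM.

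Troponin gave the same contrast in each of its 3 subunits. Tnnt3, the fast subunit that anchors the complex to tropomyosin, was at 1.48, 165.1 and 28.1 FPKM in KO libraries at 5 months against 3.67, 192.2 and 4.81 FPKM in WT libraries, and at 32.1, 4.39 and 33.4 FPKM in KO libraries at 8 months against 7.79, 2.83 and 2.04 FPKM in WT libraries. Its slow paralogue Tnnt1 was at 2.99, 2.09 and 3.03 FPKM in KO libraries at 5 months against 2.16, 3.03 and 2.54 FPKM in WT libraries, and at 4.08, 3.86 and 4.31 FPKM in KO libraries at 8 months against 2.90, 3.45 and 3.14 FPKM in WT libraries. Tnnt3 per Tnnt1 was therefore 79.0 in F18 and 63.5 in E3 but 0.49 in E7, where the slow form was the more abundant. The same held in F10 and F12, at 0.82 and 0.65.

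Tnni2, the fast inhibitory subunit, was at 2.14, 134.1 and 26.2 FPKM in KO libraries at 5 months against 2.82, 172.3 and 4.62 FPKM in WT libraries, and at 27.7, 3.53 and 32.1 FPKM in KO libraries at 8 months against 7.17, 3.29 and 1.67 FPKM in WT libraries. The slow form Tnni1 was at 0.28, 0.52 and 0.83 FPKM in KO libraries at 5 months against 0.71, 0.49 and 0.51 FPKM in WT libraries, and at 0.31, 0.61 and 0.37 FPKM in KO libraries at 8 months against 0.56, 0.59 and 0.61 FPKM in WT libraries. No Tnni1 value set F18 or E3 apart. Tnnc2, the fast calcium-binding subunit, was at 0.49, 138.7 and 24.8 FPKM in KO libraries at 5 months against 2.12, 199.8 and 3.495 FPKM in WT libraries, and at 28.5, 5.42 and 28.1 FPKM in KO libraries at 8 months against 7.22, 1.98 and 0.93 FPKM in WT libraries. Tnnc1, the slow and cardiac form, was at 0.73, 0.81 and 0.75 FPKM in KO libraries at 5 months against 1.01, 0.68 and 1.11 FPKM in WT libraries, and at 0.69, 1.72 and 0.67 FPKM in KO libraries at 8 months against 0.73, 1.04 and 0.74 FPKM in WT libraries. Its highest value was in F6, a library low in the fast forms.

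Acta1, the actin of skeletal thin filaments, was at 0.64, 187.7 and 26.97 FPKM in E7, F18 and F19 (KO, 5 months) against 4.04, 228.4 and 3.92 FPKM in E1, E3 and E4 (WT, 5 months). At 8 months Acta1 was at 39.9, 3.42 and 23.8 FPKM in F5, F6 and F27 (KO) against 9.32, 1.47 and 0.90 FPKM in F1, F10 and F12 (WT). The KO mean was 71.8 ± 101.3 FPKM and the WT mean 78.8 ± 129.6 FPKM at 5 months, and the KO mean 22.4 ± 18.3 FPKM and the WT mean 3.90 ± 4.71 FPKM at 8 months (SD, n = 3 each). Each SD exceeded or came near its mean.

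Ckm, the muscle creatine kinase that regenerates ATP at the filaments, moved with Acta1. It was at 0.43, 134.1 and 20.9 FPKM in KO libraries at 5 months against 2.08, 207.4 and 2.83 FPKM in WT libraries, and at 35.99, 3.16 and 20.8 FPKM in KO libraries at 8 months against 5.11, 1.83 and 0.78 FPKM in WT libraries. Acta1 per Ckm stayed between 0.80 and 1.94 in all 12 libraries. Mb, the oxygen store myoglobin, was at 2.34, 85.0 and 19.1 FPKM in KO libraries at 5 months against 2.97, 138.1 and 4.49 FPKM in WT libraries, and at 18.8, 5.64 and 24.9 FPKM in KO libraries at 8 months against 8.85, 2.22 and 1.98 FPKM in WT libraries. Pygm, the glycogen phosphorylase of muscle, and Eno3, its enolase, had a base level in every library, at 15.7 to 53.3 FPKM and 10.8 to 71.3 FPKM, with E3 and F18 highest.

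Among the calcium-handling members, E3 and F18 held the highest values of each, while the order of the lower libraries differed. Atp2a1, the fast calcium pump SERCA1, was at 0.78, 114.9 and 21.5 FPKM in KO libraries at 5 months against 3.04, 173.4 and 3.86 FPKM in WT libraries, and at 31.2, 2.67 and 20.9 FPKM in KO libraries at 8 months against 4.34, 1.83 and 1.25 FPKM in WT libraries. Casq1, the calcium buffer calsequestrin, was at 1.61, 20.7 and 5.28 FPKM in KO libraries at 5 months against 1.68, 29.4 and 1.90 FPKM in WT libraries, and at 5.10, 2.21 and 5.13 FPKM in KO libraries at 8 months against 1.69, 1.31 and 1.45 FPKM in WT libraries. At 8 months its KO and WT libraries did not overlap. Trdn, which ties calsequestrin to the release channel, ranged from 0.36 to 4.98 FPKM.

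Ryr1, the calcium release channel, was raised in a library beyond F18 and E3. It was at 3.48 FPKM in F18, 4.21 FPKM in E3 and 1.45 FPKM in E1, where Acta1 was only 4.04 FPKM, and at 0.053 to 0.74 FPKM in the other 9. Ryr1 is also expressed by cerebellar Purkinje cells. The brain and brainstem markers summed highest in E1, at 264.6 FPKM against 128.2 to 223.7 FPKM elsewhere, and Gad1, the GABA-making enzyme, was at 41.9 FPKM in E1 against 1.66 to 4.65 FPKM elsewhere. The part of such RNA in the Ryr1 value of E1 was not tested.

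Of the scaffold proteins, Ttn, the giant spring of the sarcomere, was at 0.075, 1.77 and 0.33 FPKM in KO libraries at 5 months against 0.087, 2.45 and 0.16 FPKM in WT libraries, and at 0.33, 0.058 and 0.38 FPKM in KO libraries at 8 months against 0.12, 0.14 and 0.11 FPKM in WT libraries. Neb, the ruler of the thin filament, was at 0.78, 4.72 and 1.59 FPKM in KO libraries at 5 months against 1.14, 6.10 and 1.14 FPKM in WT libraries, and at 1.22, 0.66 and 1.74 FPKM in KO libraries at 8 months against 1.12, 1.32 and 1.22 FPKM in WT libraries. Des, the intermediate filament that links Z-discs and also occurs in smooth muscle, was at 3.55, 22.2 and 6.30 FPKM in KO libraries at 5 months against 4.81, 22.9 and 5.19 FPKM in WT libraries, and at 6.58, 4.54 and 7.13 FPKM in KO libraries at 8 months against 5.33, 4.31 and 4.10 FPKM in WT libraries. F18 and E3 were thus far apart from the other libraries for all 3, and Neb and Des had a base level in the low libraries.

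The other Z-disc and filament genes differed in that base level. Tcap, the titin cap, was at 13.7 to 39.9 FPKM in the 10 libraries other than F18 (75.9 FPKM) and E3 (86.0 FPKM). Ldb3, a Z-disc scaffold, was at 7.25 to 12.5 FPKM in those 10 libraries against 19.7 FPKM in F18 and 27.6 FPKM in E3. Actn2, the alpha-actinin of all fibres, was at 2.23 to 5.37 FPKM against 8.21 FPKM in F18 and 10.01 FPKM in E3. The fast-fibre alpha-actinin Actn3 had no such base, lying at 0.39 to 3.85 FPKM in the 10 libraries against 8.72 FPKM in F18 and 12.7 FPKM in E3.

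Myosin-binding protein C, which crosslinks the thick filament, differed by isoform. Mybpc2, the fast form, was at 14.6 FPKM in F18, 19.3 FPKM in E3 and 0.76 to 3.37 FPKM elsewhere. Mybpc1, the form first described in slow fibres, was at 5.06 to 23.1 FPKM in all libraries, with E3 highest and F6 second. Myoz1, a fast-fibre partner of calcineurin at the Z-disc, reached 27.4 FPKM in F18 and 44.0 FPKM in E3. Myot, the Z-disc protein myotilin, reached 8.25 and 12.4 FPKM there, and Xirp2, an actin-binding repair protein, 3.36 and 3.68 FPKM.

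KO and WT were compared at each age in a limma fit of log2(FPKM + 0.5) over all genes. At 5 months no member passed an adjusted p of 0.05, against 0.0676% of all genes (11 of 16269), and none passed an unadjusted p of 0.05, against 18.2% of all genes. The median change of the 36 members was 0.05 on the log2 scale, beside -0.03 over all genes tested, with 23 members higher in KO. Fitted changes were 0.12 (SE 1.98) for Acta1, 0.19 (SE 1.98) for Ckm, 0.06 (SE 1.75) for Myh4, 0.18 (SE 1.58) for Mylpf, 0.09 (SE 1.79) for Atp2a1, -0.03 (SE 0.63) for Ttn and -0.06 (SE 0.65) for Des. Myh7, below the level filter, differed by 0.03 with no test. The smallest p was that of Myl2, with a change of 0.54 (SE 0.31) and an adjusted p of 0.39 by limma.

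Those small differences depended on single libraries in both groups. Of the KO libraries, the median change at 5 months was 0.60 without E7, -0.76 without F18 and 0.04 without F19. Of the WT libraries, it was -0.48 without E1, 0.87 without E3 and -0.44 without E4. Without F18 and E3 together, a choice made after the data were seen, it was 0.30. For Acta1 the change was -1.57 without F18, 2.01 without E3 and 2.11 without E7. No member had groups that did not overlap at 5 months, against 25.0% of all genes. E7 was the only KO library of its age with a code letter E, and no WT library of that age had F. Within the letter E, KO against WT at 5 months is therefore 1 library against E1, E3 and E4, with Acta1 at 0.64 FPKM in E7 against 4.04, 228.4 and 3.92 FPKM in the WT libraries, and within the letter F there is no WT library.

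At 8 months members were on the whole at higher values in KO, without passing the test. No member passed an adjusted p of 0.05 by limma, against 0.0123% of all genes (2 of 16269). Only Tnnt1 passed an unadjusted p of 0.05, 1 of 33 tested, against 5.18% of all genes. The median change of the 36 members was 0.60, beside 0.00 over all genes tested, with 31 members above 0. By class the median was 1.91 for fast-fibre genes, 0.54 for shared genes and 0.07 for slow-fibre genes.

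Fitted changes at 8 months were 2.38 (SE 1.98) for Acta1, 2.47 (SE 1.98) for Ckm, 2.04 (SE 1.75) for Myh4, 1.91 (SE 1.58) for Mylpf and 2.26 (SE 1.79) for Atp2a1, with adjusted p by limma between 0.97 and 0.98. Ttn changed by 0.25 (SE 0.63), Des by 0.36 (SE 0.65) and Myh7, untested, by -0.05. The SE of a strongly varying gene was set by the spread in all 4 groups, E3 and F18 included. With only the 8-month groups in the fit and level filter, 12 of 31 members tested passed an unadjusted p of 0.05, against 4.43% of all genes. All 12 were higher in KO, and none passed an adjusted p of 0.05. Many members were high together in F5 and F27, so the 12 are not independent calls. An exact permutation test of 3 against 3, two-sided, gave p = 0.2 at 8 months for Acta1, Ckm, Myh4, Mylpf and Atp2a1.

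The order of the 8-month libraries shows where the difference lay. F5 and F27 were both above all 3 WT libraries for 26 of the 36 members, 25 of them past the level filter, a relation that held for 7.71% of all genes past it. These 2 libraries were picked out after the members' values were seen, so the counts are a description without a test. F6 joined them for 4 of those 26 and was not above all 3 WT libraries for the rest. For 4 of the 33 members past the filter the groups did not overlap, against 10.3% of all genes, a share near the background: Actn2, Casq1, Eno3 and Tnnt1, each higher in KO. The exact permutation test of 3 against 3 gave p = 0.1 for each, the smallest it allows, two-sided.

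Tnnt1, the slow troponin T, had the smallest p at 8 months and over both ages. Its mean was 4.09 ± 0.23 FPKM in KO against 3.16 ± 0.28 FPKM in WT at 8 months (SD, n = 3 each), and 2.70 ± 0.53 FPKM in KO against 2.58 ± 0.44 FPKM in WT at 5 months. The fitted change was 0.33 (SE 0.15) at 8 months, with an adjusted p of 0.96 by limma, and 0.19 (SE 0.10) averaged over both ages, with an adjusted p of 0.36.

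**Figure D4:**
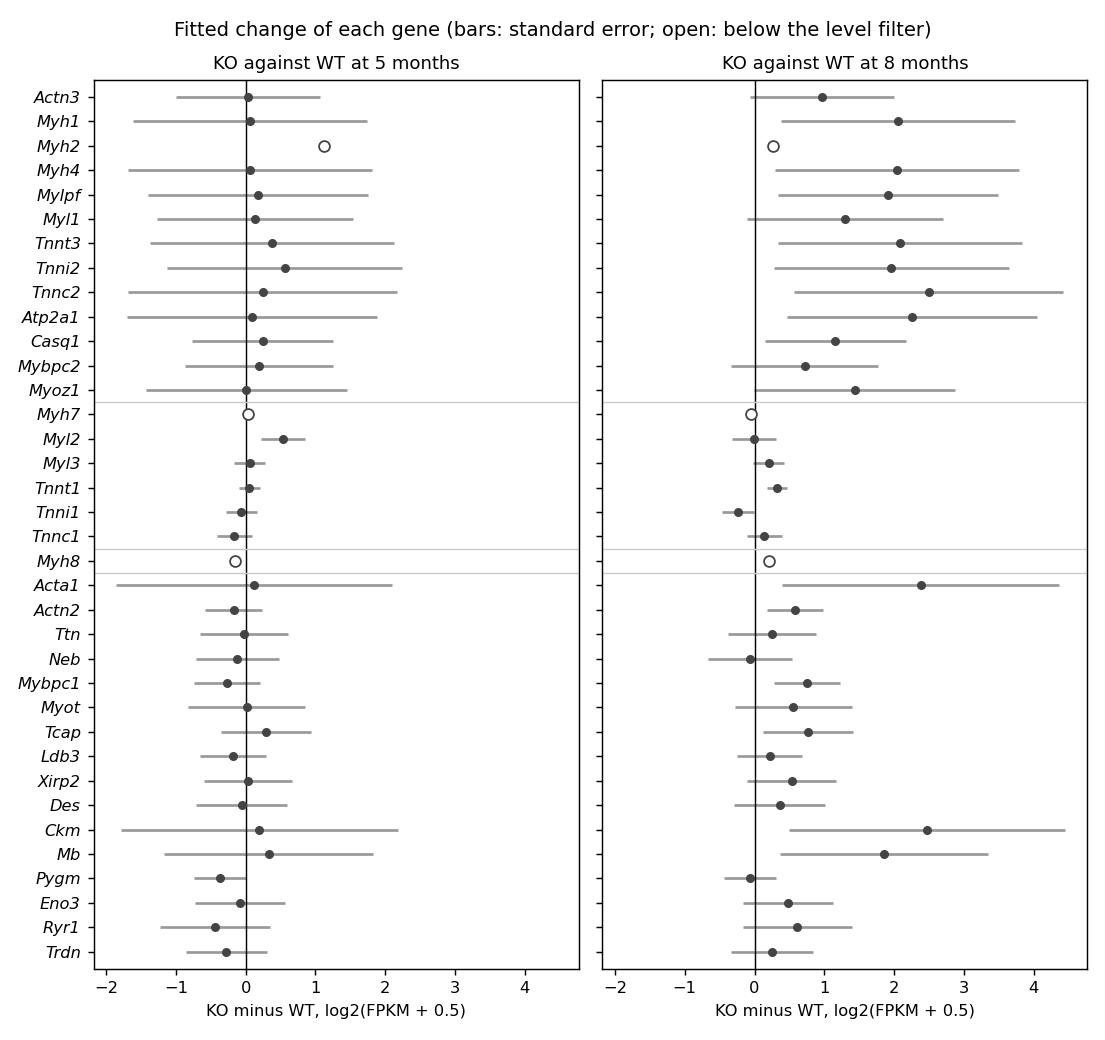
Fitted change of each gene, KO minus WT on the log2(FPKM + 0.5) scale, at 5 months (left) and at 8 months (right), with standard errors as bars and open points for Myh2, Myh7 and Myh8, which were not tested. At 5 months the tested fast-fibre genes lie between 0.01 and 0.56 with wide bars, and at 8 months Acta1 and Ckm lie at 2.38 and 2.47 with standard errors of 1.98.

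Averaged over both ages no member passed an adjusted p of 0.05, against 0.0799% of all genes, or an unadjusted one, against 17.4%. The median change was 0.28, beside -0.02 for all genes, and lay between 0.07 (without F18) and 0.67 (without E3) when 1 library was left out. It was 1.25 (SE 1.40) for Acta1, 1.33 (SE 1.40) for Ckm, 1.05 (SE 1.24) for Myh4, 1.05 (SE 1.11) for Mylpf, 1.17 (SE 1.27) for Atp2a1, 0.11 (SE 0.45) for Ttn, 0.15 (SE 0.46) for Des and -0.01, untested, for Myh7. An exact permutation test within ages, two-sided over 400 regroupings, gave p between 0.12 and 0.98 for the single members. The genotype effect was not shown to differ between ages for any member: none passed an adjusted p (0.00615% of all genes did) or an unadjusted p of 0.05 (4.67%) by limma. Mybpc1 had the smallest p of that contrast, with a difference of 1.01 (SE 0.66) and an adjusted p of 0.88. The median of the members in that contrast was 0.55, and lay between -0.15 (without E3) and 1.197 (without F18) when 1 library was left out.

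The comparisons between ages also depended on single libraries. At 8 against 5 months in WT the median change was -0.86, beside 0.02 for all genes. It was -0.10 without E3 and between -1.24 and -0.80 without any other WT library. In the main fit no member passed an adjusted p of 0.05 (0.0123% of all genes) or an unadjusted one (7.83%) by limma. Under other settings up to 16 members passed an unadjusted p, and none an adjusted one. Only Myl3 had groups that did not overlap, lower at 8 months, against 19.2% of all genes. At 8 against 5 months in KO the median change was -0.24, beside 0.01 for all genes. It was -0.99 without E7, 0.39 without F18 and -0.27 without F19, and -0.45 without F5, -0.03 without F6 and -0.52 without F27. No member or other gene (0.0%) passed an adjusted p of 0.05 by limma, and 1 member, Tnnt1, passed an unadjusted one, against 12.6% of all genes. Tnnt1 was higher at 8 months by 0.53 (SE 0.15), with an adjusted p of 0.30, and was the only member without overlap, against 15.7% of all genes.

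Other genes of the muscle fibre were read from lists chosen in the same way. Of 47 further sarcomere genes, 28 had E3 and F18 as their highest libraries, as did 10 of 23 genes of excitation-contraction coupling, 7 of 19 of muscle energy metabolism, 5 of 13 myogenic regulators and 0 of 11 of the neuromuscular junction. These counts include genes below the level filter. Of the myogenic regulators counted, Myod1, Myf6, Pax7 and Mstn averaged below 0.5 FPKM, and Mef2c above it. Past the filter, 40 genes of these lists were among the 175 with E3 and F18 highest. The share over all genes past the filter was 1.08%, which the neuromuscular count was near. No gene of these lists passed an adjusted p of 0.05 by limma in any of the 6 contrasts. For KO against WT at 8 months, the median change was 0.23 for the further sarcomere genes and 0.01 for excitation-contraction coupling. It was -0.01 for energy metabolism, -0.02 for myogenic regulators and -0.02 for the neuromuscular junction, beside -0.004 over all genes tested. The most abundant of them were not muscle-specific: Cryab, a small heat shock protein, was at 239.9 to 573.6 FPKM, with F18 lowest, and Aldoa, a glycolytic aldolase, at 791.1 to 1355 FPKM. Tpm1, an alpha-tropomyosin of many cells, was at 235.3 FPKM in F18 and 249.6 FPKM in E3 against 142.3 to 208.8 FPKM elsewhere. Pvalb, the calcium buffer of fast fibres and of some neurons, was at 398.8 FPKM in F18 and 509.3 FPKM in E3, but at 247.8 to 413.0 FPKM elsewhere.

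A few genes of these lists, chosen after their values were seen, bear on how alike F18 and E3 were. Cacna1s, the voltage sensor of the muscle T-tubule, was at 2.15 FPKM in F18 and 3.14 FPKM in E3 and at most 0.52 FPKM elsewhere. Sln, sarcolipin, an inhibitor of the calcium pump, was at 7.01 FPKM in F18, 42.4 FPKM in E3 and 7.61 FPKM in F5. Myf6, the myogenic factor most abundant in mature fibres, was at 0.86 FPKM in F18 and 1.196 FPKM in E3, while Myog stayed at or below 0.15 FPKM in all libraries.

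Markers of neighbouring tissues were read beside the muscle genes. The 7 fat markers summed to 624.1, 4742 and 54.7 FPKM in E7, F18 and F19 (KO, 5 months) against 257.4, 333.2 and 111.1 FPKM in E1, E3 and E4 (WT, 5 months), and to 1102, 1573 and 191.9 FPKM in F5, F6 and F27 (KO, 8 months) against 1347, 140.6 and 1268 FPKM in F1, F10 and F12 (WT, 8 months). F18, second to E3 in the muscle sum, was highest for fat, including Ucp1, the uncoupling protein of brown fat, at 517.2 FPKM. E3, highest for muscle, was at 20.5 FPKM of Ucp1, and F6, F1 and F12 were high in fat markers and low in muscle genes. The 12 neutrophil markers summed to 22880, 4140 and 7324 FPKM in E7, F18 and F19 (KO, 5 months) against 614.5, 679.2 and 70.6 FPKM in E1, E3 and E4 (WT, 5 months). At 8 months they summed to 16760, 893.2 and 1279 FPKM in F5, F6 and F27 (KO) against 935.6, 686.3 and 4609 FPKM in F1, F10 and F12 (WT). They separated KO from WT at 5 months, while the muscle genes did not. All 12 neutrophil markers were higher in KO at 5 months at an unadjusted p under 0.05 by limma. Of all genes, 18.2% passed that level in either direction. None of the 12 passed an adjusted p of 0.05. Of E7 and F5, the highest in neutrophil markers, E7 was among the lowest in muscle genes and F5 was above all but E3 and F18 for Acta1.

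Smooth muscle markers summed to 142.6 to 240.7 FPKM and tendon markers to 56.7 to 115.8 FPKM in all libraries. Of these, 0 of 10 and 0 of 5 had E3 and F18 as highest libraries, near the 1.08% of all genes tested. Of the 10 heart muscle markers, Gata4 and Nkx2-5 were at or below 0.073 FPKM and Myl7 at or below 0.57 FPKM. Others were present in every library, Tnni3 at 2.73 to 7.54 FPKM, Tnnt2 at 1.63 to 5.91 FPKM and Ryr2 at 1.06 to 3.90 FPKM. Mybpc3 reached 1.15 FPKM in E1. The sum of the 10 ranged from 8.29 to 14.9 FPKM, with F18 at 8.67 and E3 at 8.31 FPKM. The part of any of these tissues in the values of the muscle genes was not tested.

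**Figure D5:**
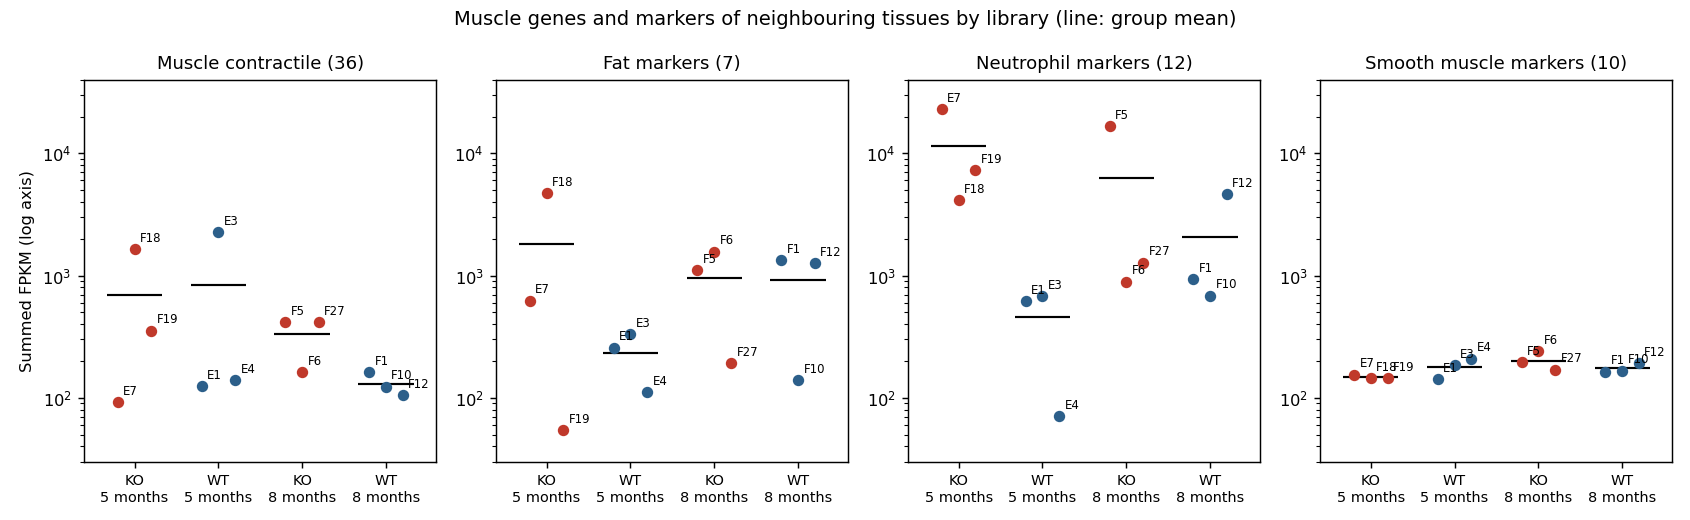
Summed FPKM (log axis) of the 36 muscle contractile genes and of markers of fat (7), neutrophils (12) and smooth muscle (10) in each library, KO in red and WT in blue, with the group mean as a line. F18 is high in muscle and fat sums while E3, at 333.2 FPKM of fat markers, is high in the muscle sum only, and smooth muscle sums stay between 142.6 and 240.7 FPKM.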

How the data were processed

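The authors sequenced stranded polyA libraries of cochlear RNA and, per the labels and methods, aligned 50-base reads to mouse build mm9 with TopHat2 2.0.10 (5 multiple hits allowed) and computed FPKM with Cufflinks 2.2.1. The deposited FPKM table had lost many decimal points. Here each was placed so that the 3 values of a group gave the authors' group FPKM within 2e-05, another deposited value, which read 23938 of 23951 genes, all members included, and changed 55.4% of values. FPKM were otherwise left as deposited. Python 3.11.15, R 4.3.3 and limma 3.58.1 were used. Genes averaging 0.5 FPKM or more over the libraries were fitted as log2(FPKM + 0.5) over 4 groups with a variance trend, and p-values were adjusted by Benjamini and Hochberg over all 16269 genes. A fold change on this scale understates that of low genes. The fit was tested on simulated data in which the spread of the most variable genes was capped. Acta1 and Ckm are such genes, so that test does not show how well their changes would be found. All 36 members were named, with a fixed panel given in every library and further list genes named by mean level. The members and lists were chosen with earlier results of these data known. Coordinates come from the deposited annotation and sequences from a reference of the same build. The authors' own comparisons (fold changes, test statistics, gene set scores) were not used.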

Additional observations from a re-analysis of the deposited data

How the results depend on the processing

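Under 23 other settings, and without E3 and F18 together, the number of members past an adjusted p of 0.05 stayed at 0 in the 6 contrasts. The number past an unadjusted p of 0.05 by limma did not. With the main fit included, it was 0 to 16 for age in WT and 1 to 2 for age in KO. For KO against WT it was 0 to 2 at 5 months, 0 to 12 at 8 months and 0 to 4 over both ages. It was 0 to 2 for the difference between ages. No fit restricted to the groups compared exists for the contrasts that use all 4. With the code letter as a covariate, where the KO arm at 5 months comes down to 1 library, E7, against E1, E3 and E4, the median change became -1.17 for KO against WT at 5 months and -2.42 for age in WT. The other 140 of 142 medians moved by less than the spread between libraries, 1.19 on the log2 scale. That spread was larger than any median of the main fit, which lay between -0.86 and 0.60. A median could therefore change sign without being counted as moved. The medians without 1 library ranged from -0.76 to 0.87 at 5 months, 0.47 to 0.66 at 8 months, 0.07 to 0.67 over both ages, -0.15 to 1.197 for the difference between ages, -1.24 to -0.10 for age in WT and -0.99 to 0.39 for age in KO. Of 568 changes of single genes, 63 changed direction, none of them past the threshold.

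At 5 months these were, with a pseudocount of 0.1, Acta1 (-0.00499), Myh4 (-0.25) and Ttn (0.0566), and with quantile scaling Myh4 (-0.0116). With array weights they were Acta1 (-1.05), Ckm (-1.03), Myh4 (-1.21), Mylpf (-0.83) and Atp2a1 (-1.002). With the code letter they were Acta1 (-3.87), Ckm (-3.71), Myh4 (-3.28), Mylpf (-2.67) and Atp2a1 (-3.44). With the Xist level as a covariate they were Acta1 (-0.14), Ckm (-0.15), Myh4 (-0.48), Mylpf (-0.0776) and Atp2a1 (-0.26). Without E3 and F18 together Ttn was 0.15. Over both ages, with the code letter, Acta1 was -0.74, Ckm -0.62, Myh4 -0.62, Myh7 0.0208, Mylpf -0.38, Ttn -0.31, Atp2a1 -0.59 and Des -0.39, and with array weights Ttn was -0.13 and Des -0.0884. The cause of these moves was not tested.

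Without 1 library, changes at 5 months ranged from -1.57 to 2.11 for Acta1, -1.44 to 2.24 for Ckm, -1.63 to 1.76 for Myh4, -0.00248 to 0.0674 for Myh7, -1.09 to 1.92 for Mylpf, -0.60 to 0.72 for Ttn, -1.39 to 1.92 for Atp2a1 and -0.76 to 0.64 for Des. Over both ages they ranged from -0.0346 to 0.0124 for Myh7, -0.18 to 0.48 for Ttn and -0.20 to 0.50 for Des. No paired analysis was possible because the labels number animals with codes that no 2 groups share. FPKM hold no read numbers, so counting error at low values such as those of Myh7 is not known.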
